A study of Mus musculus with 2 samples.

Results

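Macrophage_4 is one of 4 macrophage clusters that the authors named in single-cell libraries of mouse hepatoma grafts. Its members were taken from the deposited cluster name of each cell. There were 191 of them among 11247 cells, 86 of 5765 in the library of IgG-treated tumours and 105 of 5482 in the library of tumours treated with a SIGLEC15 antibody. They lay among 376 and 532 cells of all 4 macrophage clusters. The tumours were grafts of Hep1-6, a mouse hepatoma cell line, grown in wild-type male C57BL/6 mice aged 6-8 weeks on a normal diet in a specific pathogen free unit. IgG, the control, or the antibody was given by intraperitoneal injection. The design text lists 3 mice in each group and the labels list 1 library in each, and how the mice were combined is not given in the sources used here. Cells selected on CD45 beads were mixed 1:1 with unselected cells before loading, so the share of immune cells in a library was partly set by hand. All genes were examined in the antibody library, and 105 genes could be compared between the libraries. Siglec15 was not analysed here as a single gene, though the list of Siglec receptors and adaptors names it.

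Tumour macrophages are phagocytes that arise largely from blood monocytes. They are recognised by complement C1q, by the lysosomal glycoprotein Cd68 and by the receptor for colony stimulating factor 1 (Csf1r). They take up dying cells and debris, degrade them in lysosomes rich in cathepsins, and can present peptides on MHC class II molecules to T cells. In a droplet assay a cell barcode also collects RNA that floats free after tissue digestion, so a UMI (a unique molecular identifier, which marks 1 captured RNA molecule) of a gene need not come from the cell itself.

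Macrophage_4 made up 1.49% of the IgG library (95% Clopper-Pearson interval 1.20 to 1.84%) and 1.92% of the antibody library (1.57 to 2.31%). The ratio of antibody to IgG was 1.28, with an exact conditional interval of 0.956 to 1.73 that includes 1. Among immune cells the share was 7.54% (86 of 1141) and 5.19% (105 of 2022), a ratio of 0.689 (0.513 to 0.927). Among the 4 macrophage clusters it was 22.9% and 19.7%, a ratio of 0.863 (0.643 to 1.16), beside 1.30 for Macrophage_1, 1.25 for Macrophage_2 and 0.618 for Macrophage_3. All intervals here are 95% intervals that cover counting error only, and with 1 library in each group no p-value was computed and no value has a replicate across animals. With shallow cells left out of every cluster the ratio among immune cells stayed below 1, but its interval included 1: it was 0.795 (0.525 to 1.21) with at least 1000 UMIs, where 42 IgG and 58 antibody cells were left, and 0.530 (0.224 to 1.23) with at least 2000. The libraries shared 11 cell barcodes, and 0 of them were Macrophage_4 in either library.

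Few molecules were captured from these cells. In the antibody library a Macrophage_4 cell held a median of 1053 UMIs (quartiles 827 and 1337, range 553 to 4824) from a median of 533 genes. The medians were 7870.5 UMIs in Macrophage_1, 10587.5 in Macrophage_2 and 5380 in Macrophage_3, and the 427 cells of those 3 clusters together had 8211, which is 7.80 times that of Macrophage_4. The median over all antibody cells was 13714.5, or 13 times that of Macrophage_4. Of the 30 clusters 2 had a lower median, MDSC_1 with 950 and MDSC_4 with 1049.5, both named by the authors as myeloid-derived suppressor cells. Of the 105 cells 93 lay under 2000 UMIs, against 9 of the 427 cells of Macrophage_1 to Macrophage_3. The IgG library gave the same picture, with a median of 994.5 UMIs (range 541 to 3983) in 84 Macrophage_4 cells, against 7461, 8102 and 5891 in the 3 other clusters. Thinned to 500 UMIs a cell, Macrophage_4 cells held a median of 311.9 genes (195.7 to 391.6), against 340.5 in Macrophage_1, 355 in Macrophage_2 and 345 in Macrophage_3. Thinned to 1000 UMIs, with 47 Macrophage_4 and 3 Macrophage_3 cells left out, the median was 508 against 585, 614 and 598. At equal UMIs the number of genes per cell was thus still the lowest of the 4, by a small margin at 500 UMIs and with overlapping ranges. The thinned UMIs include those of Gm42418, a single transcript described below that holds a larger share of Macrophage_4. All antibody Macrophage_4 cells together gave 132337 UMIs and 9165 genes with a UMI, against 3768139 UMIs from the 3 other clusters.

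**Figure D1:**
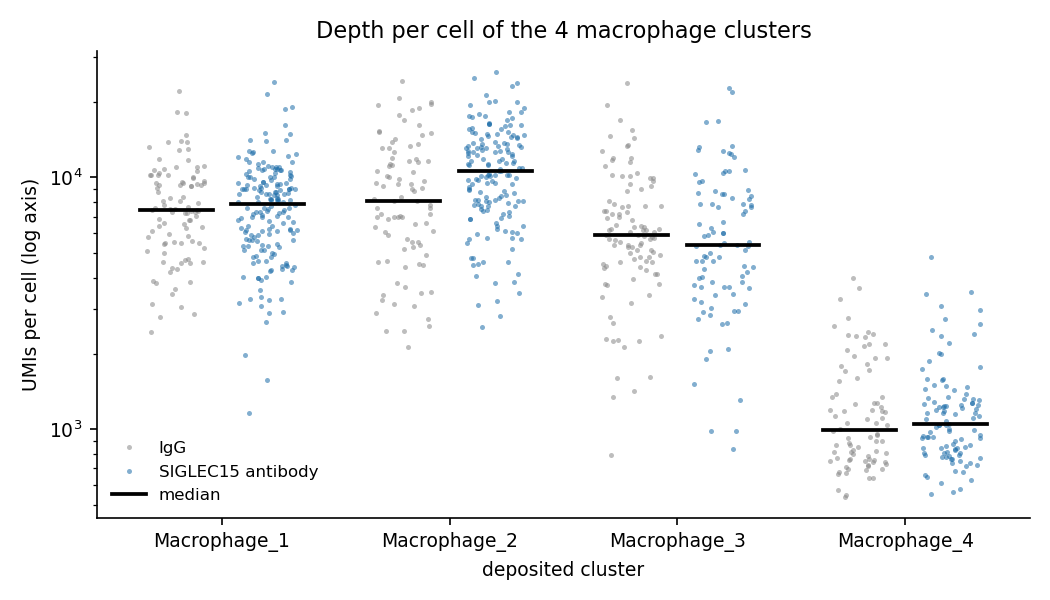
UMIs per cell on a log axis for each cell of the 4 macrophage clusters (points), with the median of each library as a bar. The Macrophage_4 medians of 994.5 (IgG) and 1053 (antibody) lie below those of the 3 other clusters in both libraries. In the antibody library the shallowest cells of each of the 3 lie within the Macrophage_4 range.

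A single transcript, Gm42418, took a large part of the UMIs of Macrophage_4. Gm42418 is a non-coding RNA annotated on chromosome 17, from 39846958 to 39848788 on the plus strand (GENCODE M21, mouse build GRCm38, matched by symbol), in a stretch that resembles the ribosomal RNA repeat. It gave 20614 UMIs in Macrophage_4, or 15.6% of the cluster. On the scale used below, CPM, in which the UMIs of each cluster are brought to the same total, that is 155769 CPM. In Macrophage_1, Macrophage_2 and Macrophage_3 the level was 39709, 26664 and 40717 CPM, and 3.38% of the UMIs of the 3 together. The ratio was 4.61 (4.54 to 4.68). By the median share per cell Macrophage_4 ranked highest of the 30 clusters.

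The Gm42418 share was spread widely among the cells of the cluster. Per cell it ran from 0.857% to 48.3% of UMIs with a median of 11.6%, against a median of 3.46% in Macrophage_1 to Macrophage_3. Of the 105 cells 95 were above that median and 4 were above the highest cell of the other clusters, which held 40.2%. The cells therefore overlap, and 19 of the 427 comparison cells were above the Macrophage_4 median. In molecules rather than shares the order is the other way: a Macrophage_4 cell held a median of 141 Gm42418 UMIs against 281, and 857 UMIs outside Gm42418 against 7884. The first differ by 1.99 times and the second by 9.2 times. Over the 427 cells of the 3 other clusters the share was higher in shallower cells (Spearman's rank correlation -0.71), while over the 105 Macrophage_4 cells the correlation was 0.09. Both measures in each correlation share the total of the cell, and all cells come from 1 library. The 9 comparison cells under 2000 UMIs had a median of 18.6% Gm42418, and the 93 Macrophage_4 cells under 2000 UMIs had 13.4%.

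**Figure D2:**
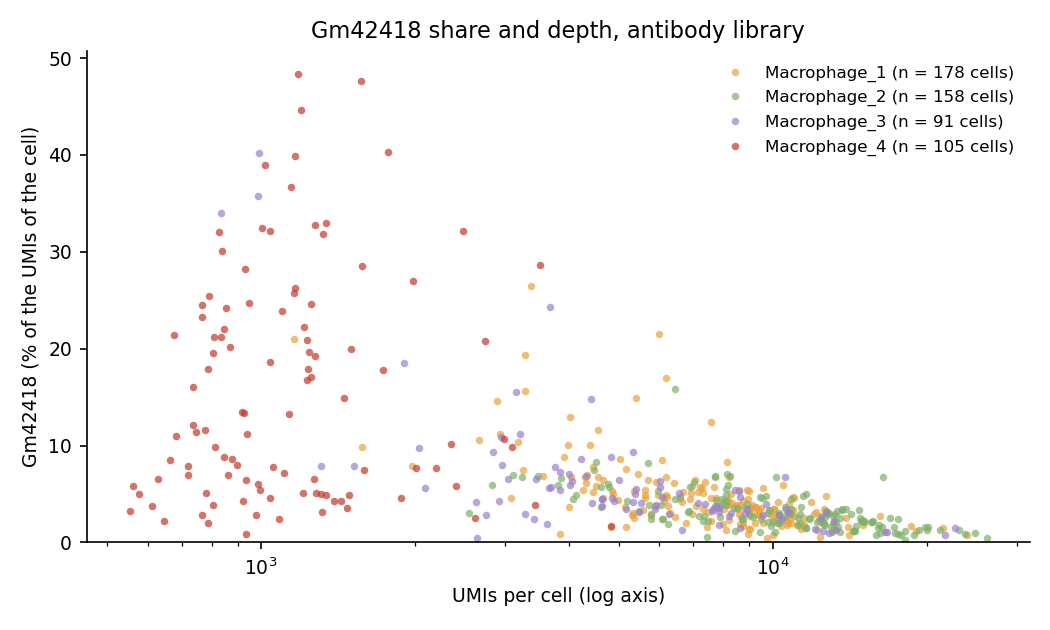
Share of the UMIs of each cell that fell on Gm42418 (vertical axis, percent) against UMIs per cell (log axis) for the 4 macrophage clusters of the antibody library, 1 point per cell. Macrophage_4 cells spread from 0.857% to 48.3% at low depth, and the shallowest cells of the other clusters reach into the same range.

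Neighbouring and related transcripts were high with it. AY036118, whose 923 bases all lie inside Gm42418 on the opposite strand (chromosome 17, 39847113 to 39848035), stood at 1602 CPM against 264 (ratio 5.20 to 7.04). Whether strand was used in the counting is not given in the sources used here, so reads of the overlapping pair may not be separable. Gm26917, on the same chromosome from 39843013 to 39846341, stood at 793 against 236 CPM (ratio 2.72 to 4.13). Lars2 on chromosome 9 (123366927 to 123462666, plus strand), the leucyl-tRNA synthetase of mitochondria, stood at 3393 against 656 CPM and was the highest-ranked named gene, 5.18-fold higher (4.67 to 5.72) with UMIs in 86 of 105 cells. The ratio of Gm42418 to Lars2 was 45.9 in Macrophage_4 and 54.2, 53.0 and 44.3 in the 3 others. Malat1, a nuclear-retained RNA, differed far less, with 13919 against 12266 CPM (ratio 1.14, 1.08 to 1.19), and the nuclear RNA Neat1 stood at 287 against 405 CPM. Shallow clusters of other kinds also held more Gm42418 than the deep macrophage clusters, 54840 to 58561 CPM in MDSC_1 to MDSC_4 and 85127 CPM in CD3_T, but none reached Macrophage_4.

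The macrophage name was checked against markers. C1qc, a chain of complement C1q (chromosome 4, 136889804 to 136893065, minus strand), stood at 877 CPM in Macrophage_4 and at 2504, 1294 and 1928 CPM in Macrophage_1, Macrophage_2 and Macrophage_3. Cd68 (chromosome 11, 69664213 to 69666153, minus strand) stood at 355 CPM against 565, 337 and 650. For C1qc Macrophage_4 was below all 3 clusters, and for Cd68 it lay between Macrophage_2 and Macrophage_1. C1qc had a UMI in 53 of 105 cells and Cd68 in 35.

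Depth lowers such shares, so each cell was also thinned to 500 UMIs, and cell types that should lack the genes were set beside them. The thinned share of cells with C1qc was 33.6% in Macrophage_4, 54.0% in Macrophage_1 to Macrophage_3, 1.38% in MDSC_1 to MDSC_4 (median depth 1047 UMIs), 0.964% in T cells (2808.5 UMIs) and 0.119% in tumour cells (20428 UMIs). For C1qa it was 41.2, 69.6, 3.08, 2.07 and 0.239% in the same order. For Cd68, which other myeloid cells also express, it was 16.2, 20.4, 6.97, 0.799 and 0.341%. The C1q genes in Macrophage_4 were thus well above their level in equally shallow MDSC cells and below that of the other macrophages.

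Of the 12 macrophage markers, all had a UMI in Macrophage_4. Their summed level was 7269 CPM, against 18366, 10462 and 21297 CPM in the 3 other clusters, a ratio of 0.480 to the pool (0.449 to 0.511). Of the 12, 9 were lower by 2-fold or more. Besides C1qa, C1qb and C1qc these included Csf1r (90.7 against 341 CPM), the F4/80 gene Adgre1 (37.8 against 113), the high-affinity antibody receptor Fcgr1 (22.7 against 113, from 3 UMIs), Ms4a7 (113 against 282) and Apoe (2101 against 4494), an apolipoprotein that the tumour cells also express. Cd68, the mannose receptor Mrc1 (219 against 272) and Aif1, a calcium-binding protein of macrophages (756 against 780), were closer. With Gm42418 taken out of the totals the summed ratio was 0.549 and 6 of the 12 were lower by 2-fold or more. At least 1 macrophage marker UMI was present in 99 of 105 cells, with a median of 7.

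Called cell by cell from the marker list with the most UMIs, 70 Macrophage_4 cells went to macrophages, 19 to hepatoma, 11 to dendritic cells, 3 to neutrophils and 2 to monocytes. In Macrophage_1, 176 of 178 cells went to macrophages, in Macrophage_2 116 of 158 and in Macrophage_3 77 of 91. Ranked by fold over all other antibody cells among 2563 genes with at least 50 CPM, 0 of the 10 leading genes of Macrophage_4 were macrophage markers, and 2 were among the first 50, Aif1 at rank 24 and Mrc1 at rank 30. The leading genes, named here after their values were seen, included the macrophage elastase Mmp12 (2856 against 119 CPM, 59 cells) and the collagenase Mmp13 (552 against 25.8, 22 cells). They also included Cox6a2, whose 12 UMIs all came from 1 cell, and Ccr7 and Ccl17 of migrating dendritic cells, with 7 and 24 UMIs in 2 and 4 cells. The other antibody cells include Macrophage_1 to Macrophage_3, which gave 11982 of their 13414 C1qa UMIs. Markers shared with those clusters are therefore held down in this ranking, and it cannot decide the macrophage name. That name is the authors', and most cells of the cluster held more macrophage UMIs than those of any other list. The list is not particular to macrophages here. Over the tumour clusters it summed from 2843 CPM in Tumor_1 to 12558 in Tumor_11, against 7269 in Macrophage_4. In MDSC_1 to MDSC_4 it summed to 1207 to 1505 CPM. Apoe, which tumour cells also express, gave 278 of the 962 macrophage UMIs of Macrophage_4, so the call by cell does not settle the name either.

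Markers of other cell types were present at different levels. The dendritic list summed to 2516 CPM against 1542, 2460 and 1819, most of it from Cst3 (cystatin C, 2320 against 1848 CPM), and Flt3, Cd209a, Fscn1 and Zbtb46 were at 0. Of the 333 UMIs of the dendritic list 129 lay in 1 cell. The monocyte list summed to 997 CPM against 263, 660 and 1325, below Macrophage_3, and 4 of 9 genes were 2-fold or more above the pool. Among these was Ly6c2, a monocyte surface antigen, at 166 against 37.2 CPM, with 20 of its 22 UMIs in 1 cell. Of the 132 UMIs of the monocyte list 42 lay in 1 cell. Neutrophil markers summed to 574 CPM against 598, 1166 and 4457, with Cxcr2, Retnlg and Ly6g at 0. T cell markers summed to 212 CPM against 122, 1584 and 563, and 8 of 10 were 2-fold or more lower than the pool, whose level is carried by Macrophage_2. Natural killer markers stood at 90.7 against 127 CPM (Ncr1, Klrb1c, Klra8 and Eomes at 0) and endothelial markers at 22.7 against 34.2 (Cdh5, Emcn, Egfl7 and Cldn5 at 0). Low lists that were higher in Macrophage_4 were fibroblast and pericyte genes with 16 UMIs (121 against 35.3 CPM, Pdgfra, Pdgfrb and Lum at 0), B cell genes (128 against 67.9, Ms4a1 and Pax5 among those at 0) and mast cell and basophil genes with 8 UMIs (60.5 against 5.57, Cpa3, Fcer1a and Mcpt4 at 0). Of the 8 mast cell and basophil UMIs 6 lay in 1 cell. Erythroid genes stood at 15.1 against 9.02 CPM and platelet genes, nearly all Pf4, at 166 against 649.

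Across all genes, Macrophage_4 was compared with Macrophage_1 to Macrophage_3 pooled, over 9481 genes with at least 20 UMIs in the 4 clusters. Folds of single genes carry a prior count of 0.5, and 2-fold is used as a threshold of size, not as a test, since the clusters were made from these genes. Of these, 918 genes (9.68%) were 2-fold or more higher in Macrophage_4 and 1600 (16.9%) were 2-fold or more lower, so 36.5% of the genes past 2-fold were higher. The median log2 ratio was -0.12. The split depends on the scaling: with Gm42418 left out of the totals every log2 ratio moves up by 0.19, the median becomes 0.08, and 1292 genes were higher and 1188 lower (52.1% higher). With the totals taken outside ribosomal, mitochondrial and nuclear-retained genes it was 1419 and 1094 (56.5%), and with the median ratio set to 1 it was 1158 and 1320 (46.7%).

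Sparse counts lie behind many of these genes. A gene at the minimum with equal CPM in both would give 0.679 UMIs in Macrophage_4, and 1276 of the tested genes had 0. Of the higher genes 510 rested on at most 3 UMIs, and of the lower genes 900 had 0. Those whose exact interval also excluded 1 numbered 153 higher and 310 lower. With at least 50 UMIs 355 genes were higher and 1087 lower (24.6% higher), with at least 300 UMIs 14 and 166 (7.78%), with a prior scaled to the totals 607 and 2507 (19.5%), and with 1 UMI as the minimum 4947 and 1600 (75.6%).

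**Figure D3:**
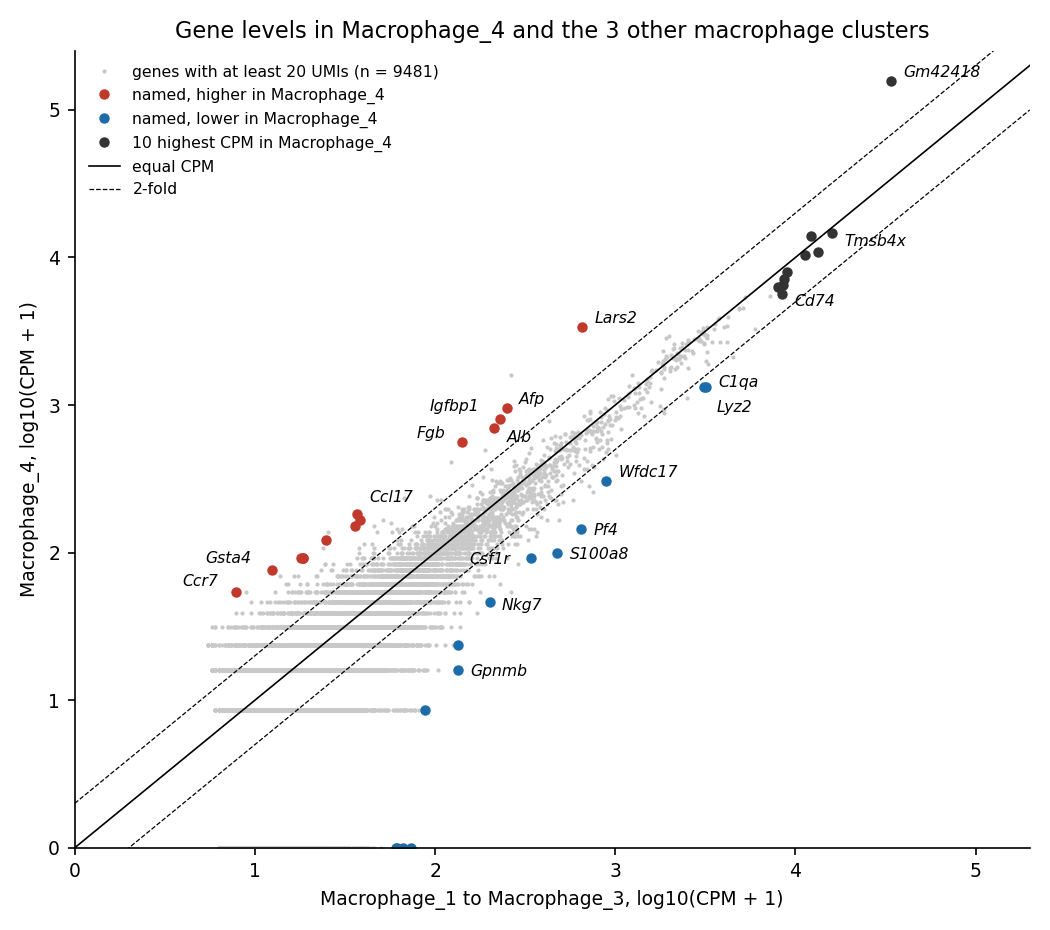
Level of each tested gene in Macrophage_4 (vertical axis) and in Macrophage_1 to Macrophage_3 pooled (horizontal axis), both log10(CPM + 1), with equal level as a full line and 2-fold as dashed lines. Gm42418 and Lars2 lie far above the lines and C1qa, Lyz2 and Csf1r below, while the rows of points at the bottom are genes with a few UMIs in Macrophage_4.

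Besides Gm42418 and Malat1, the most abundant transcripts were cytoskeletal, ferritin, mitochondrial and MHC class II genes. Tmsb4x, an actin-binding peptide, stood at 14576 CPM against 15889, Actb at 10927 against 13267, and the ferritin chains Fth1 at 10390 against 11311 and Ftl1 at 6536 against 8488. The mitochondrial genes mt-Co3, mt-Atp6 and mt-Co2 stood at 7919, 7156 and 6257 CPM against 8976, 8586 and 7985. Cd74, the invariant chain of MHC class II, stood at 5690 CPM against 11144, 7151 and 5532 in Macrophage_1, Macrophage_2 and Macrophage_3. Each of these 8 genes differed by less than 2-fold from the pool, and UMIs of Actb were in all 105 cells.

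Secreted liver proteins led the genes that were higher in Macrophage_4. Afp, the fetal albumin of liver and hepatoma (chromosome 5, 90490737 to 90508907, plus strand), stood at 952 CPM against 232, 239 and 317, 3.84-fold above the pool (3.15 to 4.62), with UMIs in 54 cells and 22 of its 126 UMIs in 1 of them. Alb stood at 703 CPM against 211 (3.35-fold, 48 cells), the fibrinogen chain Fgb at 559 against 141 (4.0-fold, 41 cells) and the apolipoprotein Apoa1 at 151 against 34.8 (4.44-fold, 18 cells). The insulin-like growth factor binding proteins Igfbp1 (801 against 230 CPM, 3.50-fold, 45 cells) and Igfbp3 (121 against 23.9, 11 cells) went the same way. So did the glutathione transferase Gsta4 (75.6 against 11.4 CPM, 9 cells), Spp2 (90.7 against 17.0), Apoc4 (90.7 against 17.5) and Ly6d (90.7 against 17.5, with 7 of 12 UMIs in 1 cell).

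Tumour cells of the same library also held these genes. Of the 15 genes named as higher by the fixed rule, 11 had a larger thinned share of positive cells in tumour clusters than in Macrophage_4. The same count was not taken over all tested genes, so whether 11 of 15 is more than usual is not known. For Afp the thinned share was 31.6% in Macrophage_4, 11.6% in the other macrophages, 19.2% in MDSC_1 to MDSC_4, 12.9% in T cells and 74.9% in tumour cells. For Igfbp1 it was 26.9, 11.5, 15.9, 11.8 and 64.9%. The other 4 were Lars2, Ccl17, Ccr7 and Ly6c2, and the last 3 rested on 4, 2 and 3 cells. Ccl17, a chemokine of dendritic cells, had 16 of its 24 UMIs in 1 cell.

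The 12 hepatoma markers summed to 3582 CPM in Macrophage_4, against 998, 1014 and 1313 CPM in the 3 other clusters, a ratio of 3.39 (3.08 to 3.73), and 8 of 9 tested genes were 2-fold or more higher. Serpina1b and H19 were at 0. The intermediate filament genes Krt18 (408 against 122 CPM) and Krt8 (234 against 66.3) and the retinol carrier Rbp4 (491 against 189) were among the 8. The list was present in 94 of 105 cells and no cell held more than 42 of its UMIs. Other shallow leukocyte clusters also held it, at 1708 to 1975 CPM in MDSC_1 to MDSC_4 and 1724 in CD3_T, and tumour cells at 20358. In molecules per cell Macrophage_4 was below Macrophage_1 to Macrophage_3, with a mean of 4.51 UMIs against 9.31, and above the 2.15 in MDSC_1 to MDSC_4 and the 4.16 in T cells. Tumour cells held 396. Among the genes of the list Afp made up 26.6% of the list in Macrophage_4, 23.6, 24.0 and 22.7% in the other leukocytes in that order, and 19.8% in tumour cells, and Alb 19.6, 20, 17.2, 20.8 and 19.3%. Rbp4 made up less in Macrophage_4, 13.7% against 17.9, 17.9, 18.2 and 19.7%. Whether the molecules lay inside the cells or came from free RNA was not tested.

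**Figure D4:**
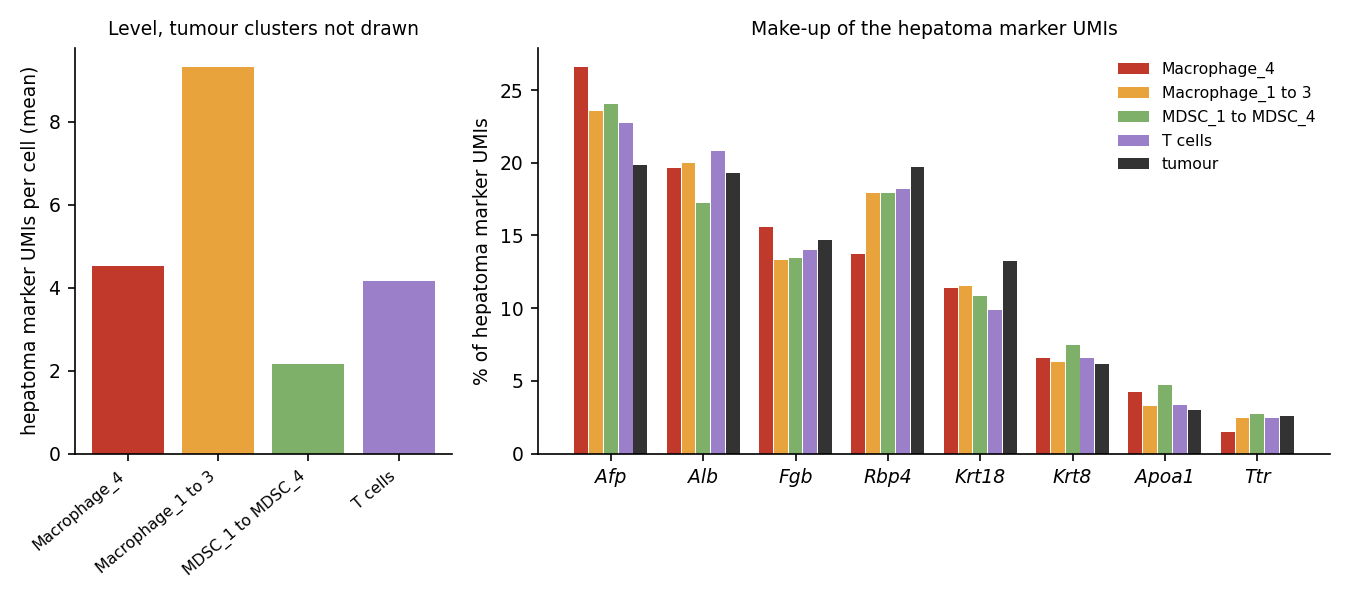
Mean UMIs per cell of the 12 hepatoma markers in 4 groups of leukocyte clusters of the antibody library (left), and the percent of those UMIs that each of 8 genes contributes there and in tumour cells (right). Macrophage_4 held 4.51 UMIs a cell against 9.31 in the other macrophages, and Afp contributed 19.8 to 26.6% in all 5 groups.

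The named genes that were lower in Macrophage_4 included several macrophage genes. Below each of the 3 other clusters were Csf1r at 90.7 CPM against 440, 228 and 438 (3.61-fold lower, 10 cells) and C1qa at 1322 against 4231, 2170 and 3637 (2.4-fold, 63 cells). Lysozyme, Lyz2, stood at 1315 CPM against 3000, 1914 and 6939 (2.36-fold). The platelet chemokine Pf4, which macrophages also make, stood at 144 against 355, 354 and 2198 CPM (4.38-fold), and Wfdc17, a small secreted inhibitor, at 302 against 618, 346 and 3132 CPM (2.91-fold). The neutrophil gene S100a8 stood at 98.2 against 185, 356 and 1521 CPM. Macrophage_4 was the lowest of the 4 for each of these, and the pooled level of Pf4, Wfdc17 and S100a8 is carried by Macrophage_3. For Wfdc17 the level in Macrophage_2 lay inside the Macrophage_4 interval of 216 to 412 CPM, so that order is not read. The natural killer and T cell genes Nkg7 (45.3 against 19.7, 371 and 126 CPM) and Cd3g (22.7 from 3 UMIs, against 14.8, 232 and 124) and the mitotic gene Incenp (1 UMI, against 30.9, 146 and 47.0 CPM) are carried by Macrophage_2, and for Nkg7 and Cd3g Macrophage_4 was above Macrophage_1. Gpnmb, a glycoprotein of lipid-laden and osteoclast-like macrophages, had 2 UMIs (15.1 CPM) against 248, 25.7 and 170 CPM (ratio 0.0138 to 0.414).

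Genes at 0 in Macrophage_4 give only bounds. With the limit of 3 UMIs over the cluster (22.7 CPM), Arhgap9, a GTPase-activating protein of blood cells, was at least 3.22-fold lower than 73.0 CPM in the pool. The Golgi protein gene Golgb1 was at least 2.89-fold lower, the phosphatase gene Ptpn7 at least 2.67-fold and the lysosomal gene Plbd2 at least 2.63-fold.

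The gene lists are described by role, each as its summed level, the ratio to the pool with its interval, and the number of genes past 2-fold, to be read beside 9.68% higher and 16.9% lower over all genes. Degradation and clearance genes were lower than in the pool, and Macrophage_2 was the nearest of the 3 clusters in each summed level. Gm42418 is in these totals, and levels of single clusters were not taken outside it. The order of Macrophage_4 and Macrophage_2 is therefore not read for lysosomal, scavenger and lipid efflux genes. Complement genes summed to 3922 CPM against 10984, 6069 and 10665 (ratio 0.453, 0.415 to 0.494), with 9 of 12 tested genes 2-fold or more lower and 1 higher, and a median log2 of -1.21 (-1.16 with genes at 0 set to their limit). Properdin, Cfp, stood at 151 against 317 CPM and factor B, Cfb, at 90.7 against 251, while C3, the central component, stood at 196 against 170. Fc receptors summed to 1708 against 3195 CPM (0.534, 0.466 to 0.610, 3 of 7 tested genes lower). The 3 were Fcgr1, the neonatal receptor gene Fcgrt (60.5 against 140 CPM) and Ms4a7, a membrane protein that is no Fc receptor. The shared signalling chain Fcer1g stood at 990 against 1762 CPM.

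Lysosomal cathepsins and hydrolases summed to 12030 CPM against 28080, 13768 and 22547 (0.585, 0.556 to 0.615). Of the 19 genes 18 were below the pool, as were most tested genes. The median log2 was -0.82 for the list and -0.12 over all tested genes. By 2-fold or more 3 of the 19 were lower, near the 16.9% over all genes. These were the sphingolipid hydrolase chain Hexa (166 against 419 CPM), the protective protein Ctsa (219 against 511) and the acid lipase Lipa (128 against 272). Psap, the saposin precursor, stood at 3249 against 5972 CPM, the protease gene Ctsb at 1882 against 3260 and Ctsd at 922 against 1832. Scavenger and efferocytosis receptors summed to 1058 CPM against 1779, 1073 and 2442 (ratio to the pool 0.680), with 5 of 13 lower. The receptor tyrosine kinase gene Mertk stood at 22.7 CPM from 3 UMIs against 74.3 and its relative Axl at 159 against 210. Lipid efflux genes summed to 4640 CPM against 8973, 4990 and 12286 (ratio to the pool 0.607), 4 of 12 lower, Apoe first. Against Macrophage_2 alone the median log2 was -0.13 for lysosomal genes, -0.14 for scavenger receptors and -0.14 for lipid efflux genes.

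By summed level, with Gm42418 in the totals, MHC class II genes were lower than in Macrophage_1 and Macrophage_2 and level with Macrophage_3. They summed to 15589 CPM against 31720, 20120 and 15337 (ratio to the pool 0.657, 0.628 to 0.686), and 0 of 11 genes passed 2-fold. H2-Aa stood at 2660 against 5585, 3558 and 2435 CPM, H2-Ab1 at 2652 against 3798 in the pool, and the class II transactivator Ciita at 121 against 140. The thinned share of cells with H2-Ab1 was 52.0%, against 71.3% in the other macrophages and 3.55% in MDSC_1 to MDSC_4. MHC class I genes summed to 5962 CPM against 7642, 6686 and 6974 (ratio to the pool 0.841), with B2m, the light chain, at 2343 against 2431.

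The metalloprotease Mmp12 and several lipid genes were above the pooled level, each by less than 2-fold. The osteoclast-like and lipid-associated list summed to 10798 CPM against 14614, 5915 and 7255 (ratio to the pool 1.15, 1.09 to 1.21), with 0 of 16 genes 2-fold or more higher and 3 lower. Mmp12 stood at 2856 CPM against 3457, 1056 and 667 (UMIs in 59 cells), the fatty acid carrier Fabp5 at 2592 against 3249, 1385 and 1577, the galectin Lgals3 at 2463 against 2354 in the pool and lipoprotein lipase, Lpl, at 1149 against 973. Each of the 4 was below Macrophage_1 and above Macrophage_2 and Macrophage_3. The 3 lower genes were Gpnmb, the lipid receptor Trem2 (30.2 against 103 CPM, 4 UMIs) and the protease gene Ctsk, at 0. Matrix and growth factor genes summed to 4390 against 3776 CPM (1.16, 1.07 to 1.26). Fibronectin, Fn1, stood at 325 CPM against 77.3, 124 and 605, and the matrix protein gene Tgfbi at 227 against 465.

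Activation genes did not follow 1 direction. Alternative activation genes summed to 3091 CPM against 3967 (0.779), with 5 of 13 lower, 1 higher (Chil3, from 4 UMIs) and a median log2 of -0.66, or -0.29 with genes at 0 set to their limit. Most of that level is Ccl24, an eosinophil-attracting chemokine, at 2131 CPM against 3561, 1882 and 608 (53 cells). Arginase, Arg1, stood at 121 against 327 CPM, and Retnla at 128 against 71.0, 38.9 and 1474, so it was above 2 clusters and below Macrophage_3. Folr2, a folate receptor of resident macrophages, and the hyaluronan receptor Lyve1 had 1 UMI each and the haemoglobin scavenger receptor Cd163 had 0. Macrophage_3 was the highest cluster for all 5 lower genes. Chemokines summed to 6801 against 9358 CPM (0.727), 3 of 18 lower: Pf4, Ccl8 (461 against 1015) and the neutrophil attractant Cxcl2 (302 against 646). Cxcl9, induced by interferon gamma, stood at 1050 CPM against 2024, 1056 and 406, and Ccl3 at 295 against 232.

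Inflammatory cytokines summed to 1058 against 1167 CPM (0.906, 0.760 to 1.07), with Il1b at 385 against 401. Type I interferon-induced genes summed to 1141 against 1102, 1449 and 3164 CPM (ratio to the pool 0.718), while their median log2 was 0.08, so sum and median differ in sign. Interferon gamma-induced genes summed to 2501 against 3011 CPM (0.831), and pattern recognition genes to 1073 against 1165 (0.921, 0.774 to 1.09). Immediate early genes summed to 3612 against 5884 CPM (0.614, 0.559 to 0.672), 4 of 17 lower, among them the mRNA decay factor Zfp36 (166 against 487) and Jun (227 against 463). Of checkpoint ligands and suppressive factors, which summed to 831 against 1384 CPM (0.60), Cd274, encoding PD-L1, stood at 75.6 against 102 CPM and Il10, Ido1, Nt5e, Cd276, Vsig4 and Pvr were at 0. The adaptors of Siglec receptors were present, Tyrobp at 1118 against 1416 CPM and the kinase gene Syk at 90.7 against 123, and the list summed to 1519 against 1972 (0.770).

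Transcription factors of macrophages summed to 2531 against 3444 CPM (0.735). Spi1, which encodes the myeloid factor PU.1, stood at 212 against 418 CPM, Irf8 at 408 against 401 and Zeb2 at 446 against 426. Cell cycle genes summed to 3121 CPM against 1850, 7115 and 2042, above Macrophage_1 and Macrophage_3 and below Macrophage_2, with Mki67 at 204 against 209 in the pool. Apoptosis genes summed to 1557 against 2044 CPM (0.762). Housekeeping lists were close: nuclear-encoded respiratory chain genes 13466 against 13306 CPM (1.01, 0.965 to 1.06), ribosomal proteins a ratio of 0.982, glycolysis and hypoxia genes 0.927, heat shock genes 0.931, iron genes 0.860 and actin cytoskeleton genes 0.864. For glycolysis and hypoxia genes the median log2 was 0.11, the other sign from the sum. Mitochondrially encoded genes summed to 37178 against 45739 CPM (0.813), and the median mitochondrial share per cell was 2.31% against 4.35%.

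Because Gm42418 holds so much of the total, these ratios were also taken outside it. Complement stood at 0.519, macrophage markers at 0.549, Fc receptors at 0.612, lysosomal genes at 0.670, lipid efflux genes at 0.694, immediate early genes at 0.703 and MHC class II at 0.751, all still below 1 with their intervals. The osteoclast-like list stood at 1.31, respiratory chain genes at 1.16, ribosomal proteins at 1.12 and hepatoma markers at 3.88, above 1. Iron (0.985), actin (0.989), MHC class I (0.962), interferon gamma-induced (0.951) and apoptosis genes (0.872) had intervals that included 1. Siglec receptors and their adaptors (0.882) did too. The direction flipped for ribosomal proteins and for pattern recognition (1.05), inflammatory (1.04), glycolysis and hypoxia (1.06) and heat shock genes (1.07), so no direction is read for those 5 lists. Counts of genes 2-fold or more lower also fell, to 6 of 12 for complement, 2 of 7 for Fc receptors and 2 of 19 for lysosomal genes. They fell to 1 of 12 for lipid efflux, 2 of 17 for immediate early genes and 1 of 18 for chemokines. Scavenger receptors kept 5 of 13.

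**Figure D5:**
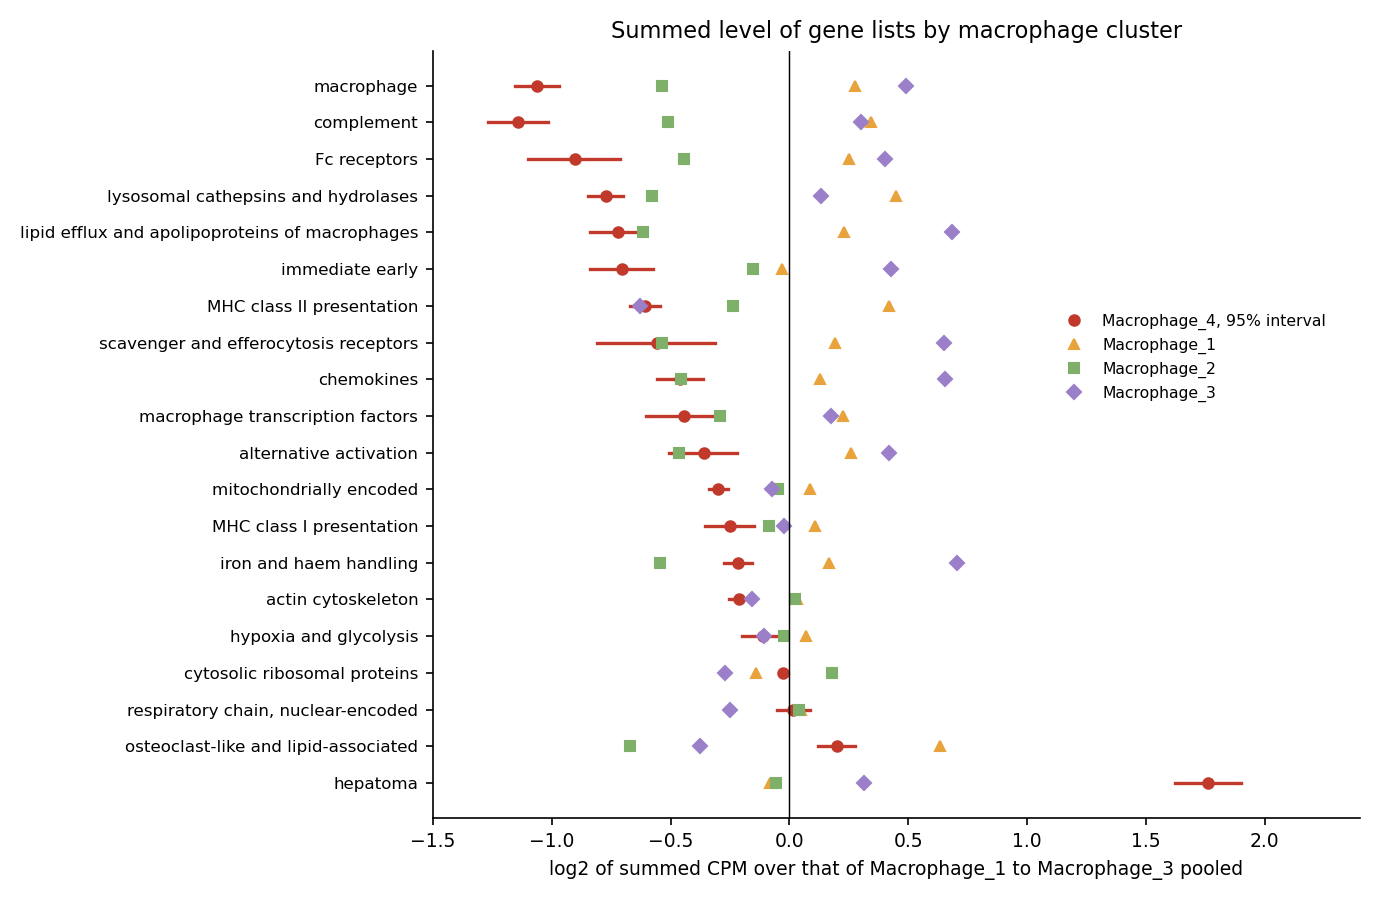
Summed level of 20 gene lists in each macrophage cluster of the antibody library, as log2 of the ratio to Macrophage_1 to Macrophage_3 pooled, with the exact 95% interval for Macrophage_4 (lines). With Gm42418 in the totals, Macrophage_4 lies lowest for macrophage, complement, Fc receptor and lysosomal genes, and 3.39-fold above the pool for hepatoma markers. For lysosomal genes it lies near Macrophage_2.

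Depth was brought nearer by taking only the shallow cells of the other clusters. There were 84 cells of Macrophage_1 to Macrophage_3 at or under 4824 UMIs, the highest depth in Macrophage_4 (31, 15 and 38 cells, median 3682 UMIs, 292647 UMIs in all), and 9 under 2000 (median 1311 UMIs, 12247 in all). The macrophage marker list summed to 18685 CPM in the 84 and 19433 in the 9, against 7269 in Macrophage_4. C1qa stood at 3902 and 4818 CPM against 1322, C1qb at 2392 and 1388 against 1118, and C1qc at 1797 and 2041 against 877. Lysosomal genes summed to 22488 and 24822 CPM against 12030. Cd68 stood at 441 and 408 CPM against 355. Each of these levels in the shallow cells of the other clusters was above that of Macrophage_4, by little for Cd68 and, in the 9 cells, for C1qb.

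Hepatoma markers stood at 1476 and 1388 CPM in the shallow comparison cells against 3582 in Macrophage_4, and Lars2 at 1709 and 1878 against 3393. Gm42418 differs from these: it stood at 78781 CPM in the 84 cells and 176860 in the 9, against 155769 in Macrophage_4, so the Macrophage_4 level was not above that of the 9 shallowest comparison cells. Mmp12 stood at 2057 and 572 CPM against 2856, and Fabp5 at 1572 and 653 against 2592. Set against the 84 cells, 96 of 2954 tested genes were 2-fold or more higher and 415 lower (18.8% higher).

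Macrophage_4 cells were not uniform. Split at the median Gm42418 share, which makes a range and not a type, 53 cells lay at or under 11.6% and 52 above, with 12 cells within 2 percentage points of the cut. Outside Gm42418 the lower group held a median of 940 UMIs and the upper 812. With CPM taken outside Gm42418, the summed macrophage markers were alike, 8713 in the lower group and 8468 in the upper. The C1q chains were not, with C1qa at 1813 and 1222, C1qb at 1552 and 1008 and C1qc at 1291 and 686 in that order. Cd68 stood at 553 and 236. The remaining members of the list, Apoe among them, were thus together higher in the upper group, so the alike sums hide opposite parts. MHC class II genes summed to 22681 and 12584, iron genes to 26707 and 15135 and nuclear respiratory chain genes to 19116 and 11534, all higher in the lower group. Mitochondrially encoded genes (28074 and 66308), Malat1 (5885 and 31278), Lars2 (1644 and 7332), immediate early genes (3212 and 5767) and hepatoma markers (3104 and 5831) were higher in the upper group. Mmp12 was alike, at 3319 and 3473. MHC class II, iron and respiratory chain messages were thus higher in the cells with less Gm42418, and mitochondrial transcripts and Malat1 in those with more. The upper group also held more neutrophil (1265 against 261) and T cell marker CPM (493 against 76.8), and the lower group more dendritic marker CPM (4072 against 1458). Of the 333 dendritic marker UMIs of the cluster, 129 lay in 1 cell of the lower group. The part of other cell types in these differences was not tested.

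By whole profile Macrophage_4 was nearest to Macrophage_2 and Macrophage_1. The Pearson correlation of log2(CPM + 20) over 6679 genes was 0.922 with Macrophage_2, 0.920 with Macrophage_1, 0.905 with the cluster named DC and 0.894 with Macrophage_3, then 0.874 with MDSC_5. Among the other macrophage clusters it was 0.939 (Macrophage_1 and Macrophage_2), 0.934 (Macrophage_1 and Macrophage_3) and 0.921 (Macrophage_2 and Macrophage_3). These values are across genes of 1 library, and the clusters differ in depth. The IgG cluster of the same name could be set beside antibody clusters over 49 shared genes only: Macrophage_1 came first (0.879) and antibody Macrophage_4 at rank 5 (0.853).

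The antibody and IgG libraries were compared within Macrophage_4 for the shared genes. The cells with a depth recovered from these genes numbered 102 (130149 UMIs) and 84 (107603 UMIs). Of the 105 shared genes 60 had a UMI in the cluster and 5 reached 20. Of the 5, 0 (0%) were 2-fold or more higher in the antibody library and 1 (20%) was 2-fold or more lower. Rpl7, a ribosomal protein gene, stood at 1529 CPM with the antibody and 1496 with IgG (ratio 1.02, 0.826 to 1.27), and Eloc, encoding elongin C, at 131 and 130 (1.00, 0.466 to 2.20). Cox5b, a subunit of cytochrome oxidase, had a ratio of 1.21 (0.851 to 1.73) and Dst, a cytoskeletal linker gene, 1.54 (0.569 to 4.55). For these 4 genes no difference was detectable at this depth.

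Ptpn18, which encodes a tyrosine phosphatase (chromosome 1, 34459762 to 34475733, plus strand), was the gene that was lower. It stood at 223 CPM (29 UMIs) with the antibody and 474 CPM (51 UMIs) with IgG, a ratio of 0.470 (0.287 to 0.756). In Macrophage_1 to Macrophage_3 the ratio for the same gene was 0.873 (0.804 to 0.95), in the same direction and closer to 1. The difference between the ratios was not tested. The median depth was 994.5 UMIs in the 84 IgG cells and 1053 in all 105 antibody cells.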

How the data were processed

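Single-cell 3' libraries (10x v2 chemistry) carry Cell Ranger 2.1.1 among the tools of the submitters' processing notes. How cells were filtered and clustered, the genome build and the strand setting were not given in the sources used here. Each value the authors deposited is a natural log, of 1 plus the UMIs of a gene scaled to 10000 per cell, as the values themselves show. The authors also deposited 1 cluster name per cell. The IgG table used here held 105 complete genes, and only these were used.

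Whole UMIs were read back from these logs (tolerance 0.001). Antibody depths equalled the summed UMIs in 5482 cells. From the 105 genes alone the depth was recovered for 84 of 86 IgG Macrophage_4 cells. In antibody Macrophage_4 cells that step gave the true depth in 100, another depth in 2 and none in 3. UMIs were summed over the cells of a cluster and scaled to CPM. Thinned shares are expected values, and their intervals used the sum rounded to whole cells. Intervals are exact (Clopper-Pearson for shares, conditional for ratios) at 95% and cover counting error only. T cells are the 4 clusters with CD3, CD4 or CD8 in the name. The steps were tested on simulated data.

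The genes named were ranked by the bound of their interval nearest to 1, up to 15 higher and 15 lower, with a minimum of 20 UMIs in the 4 clusters and of 50 CPM where the gene was higher. That ranking took no ribosomal protein, mitochondrial, haemoglobin, receptor-segment or unnamed genes. The 10 genes with the most UMIs, C1qc, Cd68, up to 4 members of each of 28 gene lists and the 13 marker lists were also named, with further list members where the text describes a list. The members and the lists were chosen with earlier results of these data known. Genes with near-identical copies, such as Ly6c2, are uncertain. Scrublet in scanpy 1.11.5 marked 3 of 5482 antibody cells and 0 in the 4 macrophage clusters. It was taken not to have worked, and no doublets were removed. Positions came from GENCODE M21, which held 18392 of 18685 symbols. Python 3.11.15, numpy 2.4.6, pandas 2.3.3, scipy 1.17.1 and matplotlib 3.10.9 were used. Some genes that the ranking or the lists hold are not reported here.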

Additional observations from a re-analysis of the deposited data

How the results depend on the processing

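No paired analysis was possible because each group has 1 library and the labels give no shared replicate numbers. The share of Macrophage_4 among macrophages, 0.863 of IgG, moved to 0.594 (0.251 to 1.38) with at least 2000 UMIs, where 14 and 12 cells remained. The 918 genes 2-fold higher became 355 with at least 50 UMIs, 4947 with at least 1, and 1419 when scaled outside ribosomal, mitochondrial and nuclear-retained genes. With at least 1 UMI the prior count can place genes without a UMI in Macrophage_4 among the higher. The following were chosen after seeing the data: 607 higher and 2507 lower with a prior scaled to the totals, 14 and 166 with at least 300 UMIs, 96 and 415 against comparison cells at or under the highest Macrophage_4 depth, and 162 and 120 against comparison cells under 2000 UMIs, which tests 886 genes. Against those 9 cells Gm42418 reversed, with a log2 ratio of -0.18. Of 436 values of gene lists under the alternatives 386 kept their sign, and for the 5 lists past 2-fold 55 of 55 did. For the 34 named genes past 2-fold 369 of 370 values kept their sign and 355 stayed past 2-fold. Of 15 values for genes compared between libraries 14 stayed inside the interval and 0 reversed. Leaving out predicted doublets was not run, since 0 cells of the 4 clusters were marked. Depth limits low genes: with the 132337 UMIs of the cluster, 3 UMIs are 22.7 CPM.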
